A study of Homo sapiens with 48 samples.

Results

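The genes described here are 38 named members of the hypoxia and glycolysis programme in breast cancer cells exposed to BV6, of which 22 are HIF-type targets and 16 are core glycolytic enzymes. A member was kept when a probe with its gene symbol was detected, at a detection p under 0.01, on 3 or more of 48 Illumina bead arrays, and the brightest such probe stood for the gene. This kept 35 members, 19 HIF-type targets and 16 enzymes, out of 11212 genes with a detected probe. PDK1, a kinase that inhibits the mitochondrial enzyme pyruvate dehydrogenase, was detected on 1 array, and EGLN3, an oxygen-sensing prolyl hydroxylase, on 0. CA9, a carbonic anhydrase, was not analysed here, since no probe carried its symbol.

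Cells answer low oxygen through the HIF transcription factors, whose alpha subunits are hydroxylated by EGLN enzymes and degraded while oxygen is present. Stabilised HIF binds DNA at a short core sequence and raises genes for glucose uptake, glycolysis, pH control, blood vessel growth, mitophagy and collagen hydroxylation. Many tumour lines run glycolysis at a high rate also in the presence of oxygen, and NF-kB and cytokine signalling are known to feed into HIF in some cells.

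The arrays form 3 experiments on 2 human breast cancer cell lines, MDA-MB-231 and EVSA-T. MDA-MB-231 cells were transfected with siRNA against TNFR1, RELA or IRF1 or with control siRNA (called siTNFR1, siRELA, siIRF1 and siCtrl here), and each siRNA was combined with BV6 or no treatment, with 3 arrays in each of 8 groups. The protocol in the labels gives 5 nM siRNA for 36 h and then 50 nM BV6 for 9 h; it names only the control and TNFR1 siRNAs, so those against RELA and IRF1 are known from the sample labels alone. In untransfected MDA-MB-231 cells, 50 nM BV6 acted for 3, 6, 9, 12 and finally 15 h, each on 2 arrays. Their untreated cells, also on 2 arrays each, were taken at 0, 9 and 15 h. EVSA-T cells were transfected with siTNFR1 or siCtrl and given 5 nM BV6 for 9 h or nothing, with 2 arrays per group. BV6 mimics the protein Smac as a dimer, antagonises the IAP proteins and thereby activates NF-kB signalling. TNFR1 is the main TNF receptor, RELA the p65 subunit of NF-kB, and IRF1 an interferon-responsive transcription factor. The labels give no low-oxygen group and say nothing on whether replicates were separate cultures, so p-values measure only the spread between samples. Each line stands for itself alone, and in bulk RNA fewer expressing cells and less RNA per cell cannot be told apart.

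Groups are given as log2 signal after background correction and quantile normalization within each experiment, and tests are limma's, with p-values adjusted over all genes of the experiment and a call at an adjusted p under 0.05. A value after ± is the standard error of a difference unless SD is written. Probes detected per array numbered 10597 to 13072 in the siRNA experiment, 10822 to 12452 in the time course and 10167 to 11786 in EVSA-T. The targeted genes followed the labels: TNFRSF1A was undetected on the siTNFR1 arrays, RELA on the siRELA arrays, and IRF1 averaged 6.58 log2 in untreated siIRF1 cells against 9.93 in untreated siCtrl cells. NFKBIA, an immediate NF-kB target, averaged 12.34 log2 with BV6 against 10.12 without it in siCtrl MDA-MB-231 cells, and 13.19 against 10.04 in siCtrl EVSA-T cells. Of the line markers, CDH1 was detected on 8 of 8 EVSA-T and on 0 of 40 MDA-MB-231 arrays, and AXL on 0 and on 40. Other epithelial markers did not separate the lines by detection in this way. EPCAM, KRT8 and KRT19 were detected on every array of both lines, and KRT18 on 4 EVSA-T and 38 MDA-MB-231 arrays. Of the other mesenchymal genes, VIM was detected on every array of both lines and SPARC on none. CD44 and MSN were each detected on 1 EVSA-T and on 40 MDA-MB-231 arrays. Of the leukocyte genes, PTPRC was detected on none, CD3E on 0 and 1, CD14 on 1 and 18, and CD68 on 4 and 40, in the same order of lines. The detection p does not follow the deposited signal exactly, so a probe called not detected on an array can lie above a detected one.

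The core HIF sequence is ACGTG, read on either strand, and a second form is GCGTG. RefSeq promoter windows (GRCh38.p14) matched 31 of the 35 members by symbol, and SLC2A3, VEGFA, BNIP3L and NDRG1 were not among them. Within the 250 bases before the gene start, ACGTG stood in 15 of the 31 members (48.4%) and in 3292 of all 15843 promoters (20.8%). GCGTG stood in 12 of the 31 (38.7%) and in 6206 of all promoters (39.2%). The palindrome CACGTG counts once on each strand. The windows shown are those of ANKRD37, an ankyrin-repeat HIF target, and KDM3A, a histone demethylase, which were higher with several siRNAs, of BHLHE40, a transcriptional repressor that was higher with BV6 in untransfected MDA-MB-231 and in EVSA-T cells, and of LDHA, the lactate dehydrogenase subunit that was called in none of the comparisons. Each is the plus strand, 5′ to 3′, with both motifs and their reverse complements in capitals.
ANKRD37, chr4:185396591-185396840: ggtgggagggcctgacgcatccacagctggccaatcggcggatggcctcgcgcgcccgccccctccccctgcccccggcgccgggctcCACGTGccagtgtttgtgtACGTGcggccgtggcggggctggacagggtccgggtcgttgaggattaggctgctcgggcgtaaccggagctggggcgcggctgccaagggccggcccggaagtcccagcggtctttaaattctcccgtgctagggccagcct
KDM3A, chr2:86441121-86441370: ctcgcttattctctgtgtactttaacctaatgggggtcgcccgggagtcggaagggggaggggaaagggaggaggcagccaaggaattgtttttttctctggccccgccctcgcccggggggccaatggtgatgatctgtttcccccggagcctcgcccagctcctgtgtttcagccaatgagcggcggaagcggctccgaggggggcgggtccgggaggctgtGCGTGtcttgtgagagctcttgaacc
BHLHE40, chr3:4979187-4979436: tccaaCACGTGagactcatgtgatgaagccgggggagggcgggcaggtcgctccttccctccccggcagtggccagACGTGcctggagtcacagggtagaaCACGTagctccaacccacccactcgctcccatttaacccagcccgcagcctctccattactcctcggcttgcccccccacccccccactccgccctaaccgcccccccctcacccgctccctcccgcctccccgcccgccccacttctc
LDHA, chr11:18394313-18394562: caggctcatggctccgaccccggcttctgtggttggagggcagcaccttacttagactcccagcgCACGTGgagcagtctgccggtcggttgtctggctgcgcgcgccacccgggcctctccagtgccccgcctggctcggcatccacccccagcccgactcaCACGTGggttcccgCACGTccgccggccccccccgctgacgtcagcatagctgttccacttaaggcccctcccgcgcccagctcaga
LDHA held 5 matches to ACGTG, BHLHE40 held 4 and ANKRD37 held 3. KDM3A held 0 matches to ACGTG and 1 to GCGTG, which starts 26 bases before the gene start. A match describes the letters only and was not tied to binding in these cells.

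The first comparison asked what each siRNA did to these genes without BV6. In untreated MDA-MB-231 cells, the glucose transporter SLC2A3 and the histone demethylase KDM3A lay above siCtrl with siTNFR1, siRELA and siIRF1 alike, while the glycolytic enzymes mostly were not called. These 3 comparisons share the siCtrl arrays, so their values are given side by side and not as independent results. With siTNFR1, 2 of 35 members were called, both higher, against 3.33% of all genes called (2.4% higher and 0.931% lower). With siRELA, 7 members were higher and 1 was lower, against 21.1% of all genes (11.1% higher and 9.97% lower). With siIRF1, 6 were higher and 7 lower, against 21.8% of all genes (9.37% higher and 12.5% lower).

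**Figure D1:**
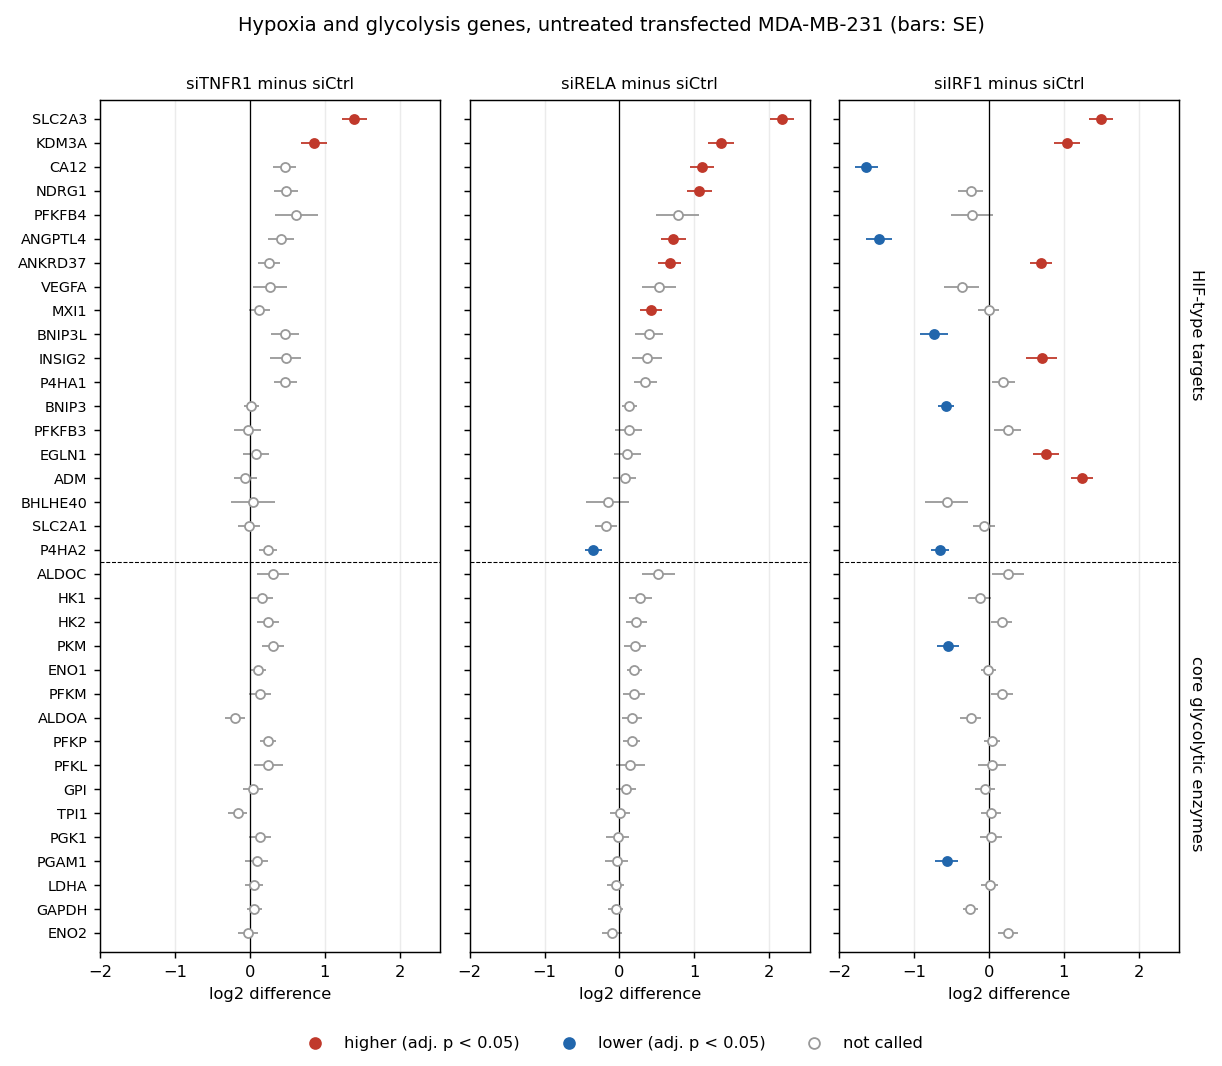
Log2 difference (x axis) of each of the 35 members (y axis) in untreated MDA-MB-231 cells, for siTNFR1, siRELA and siIRF1 minus siCtrl, with bars for the standard error (3 arrays per group). SLC2A3 and KDM3A lie right of 0 in each panel, CA12 and ANGPTL4 lie right of 0 with siRELA and left of 0 with siIRF1, and most enzymes lie near 0.

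SLC2A3, the high-affinity neuronal-type glucose transporter (GLUT3), read 10.91, 10.84 and 10.88 log2 with siTNFR1, 11.73, 11.57 and 11.65 with siRELA, and 11.21, 10.74 and 10.98 with siIRF1, against 9.83, 9.47 and 9.13 with siCtrl. All 9 arrays of the targeting siRNAs lay above all 3 siCtrl arrays. The differences were 1.40 ± 0.16 with siTNFR1 (limma, adjusted p = 5.3e-06), 2.17 ± 0.16 with siRELA (adjusted p = 1.3e-09) and 1.50 ± 0.16 with siIRF1 (adjusted p = 3.6e-07). Among the siCtrl arrays themselves SLC2A3 spanned from 9.13 to 9.83, a wider range than in the other 3 untreated siRNA groups. SLC2A1, the ubiquitous glucose transporter GLUT1, differed by -0.01, -0.18 and -0.06 (SE 0.15 each) with siTNFR1, siRELA and siIRF1 and was not called.

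KDM3A, a HIF-induced enzyme that removes methyl groups from histone H3, read 7.55, 7.84 and 7.23 log2 with siTNFR1, 7.87, 8.34 and 7.89 with siRELA, and 7.48, 7.73 and 7.95 with siIRF1, against 7.02, 6.51 and 6.51 with siCtrl. The siCtrl arrays were again below all others, but the probe is dim and was detected on only 1 siCtrl, 1 siTNFR1, 2 siRELA and 2 siIRF1 arrays. Its differences were 0.86 ± 0.17, 1.35 ± 0.17 and 1.04 ± 0.17, in the order siTNFR1, siRELA and siIRF1. The siTNFR1 difference was 0.78 among the arrays of the first slide and 1.02 among those of the second, and that of SLC2A3 was 1.26 and 1.73. Slide numbers follow the sample order, with 12 consecutive arrays to a slide. The first slide holds 1 siTNFR1 array and the second 1 siCtrl array, so each lone array is assumed to vary like the other groups.

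Carbonic anhydrase CA12, a surface enzyme of pH control, and ANGPTL4, a secreted inhibitor of lipoprotein lipase, moved in opposite directions with siRELA and siIRF1. CA12 read 8.57, 8.70 and 8.81 log2 with siRELA and 6.18, 5.63 and 6.05 with siIRF1, against 7.78, 7.61 and 7.37 with siCtrl. The 3 groups did not overlap, with siRELA above and siIRF1 below siCtrl (1.10 ± 0.16 and -1.64 ± 0.16). ANGPTL4 read 7.99, 8.23 and 8.08 log2 with siRELA and 5.97, 5.91 and 5.86 with siIRF1, against 7.61, 6.99 and 7.55 with siCtrl. It was not detected on any siIRF1 array, so it was at least 2.77-fold lower there (-1.47 ± 0.17, limma, adjusted p = 7.4e-07). Here and below, "at least" replaces a group with no detected array by the dimmest detectable signal, or by its measured mean where higher. It leaves out the spread between arrays, so it can equal the estimated difference and is no confidence limit. The rise of ANGPTL4 with siRELA was 0.72 ± 0.17 from its brightest probe but 0.25 from the mean of its detected probes, which was not called.

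**Figure D2:**
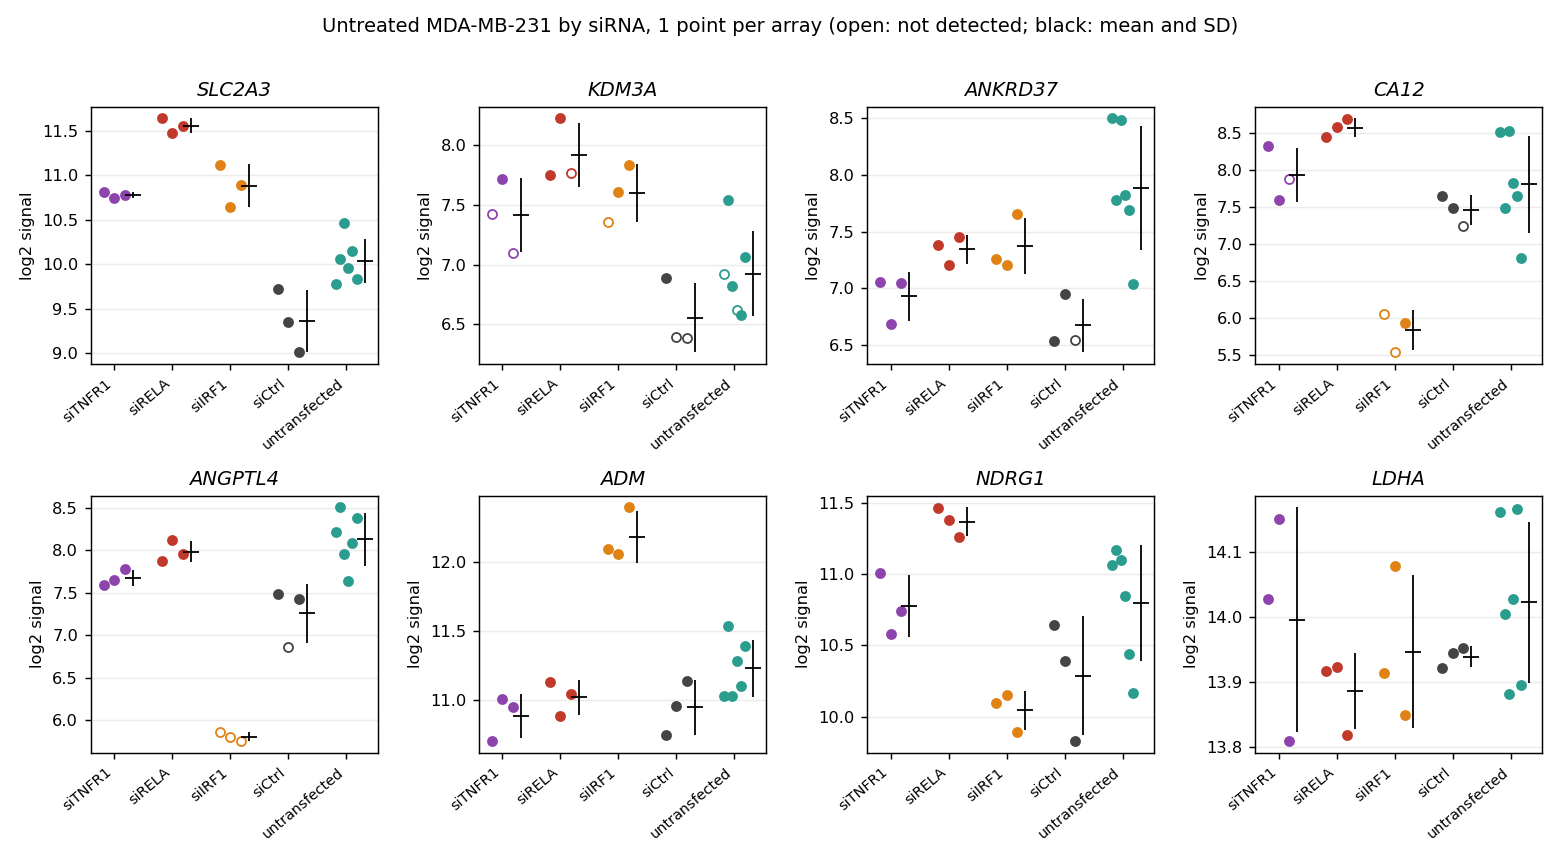
Log2 signal (y axis) of 8 members on each untreated MDA-MB-231 array, by siRNA and in untransfected cells (x axis), with all arrays normalized together; open points are arrays where the probe was not detected, and black marks give the mean and SD (n = 3, and 6 for untransfected cells). SLC2A3 and KDM3A are lowest with siCtrl, CA12 and ANGPTL4 are lowest with siIRF1, ADM is highest with siIRF1, and the LDHA groups overlap.

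ANKRD37 read 7.51, 7.33 and 7.58 log2 with siRELA and 7.39, 7.33 and 7.78 with siIRF1, against 6.66, 7.07 and 6.67 with siCtrl. Both siRNA groups lay above siCtrl without overlap (0.67 ± 0.15 and 0.70 ± 0.15), while the siTNFR1 arrays, at 7.19, 6.81 and 7.18, overlapped it (0.26 ± 0.15, not called). NDRG1, a stress- and hypoxia-induced gene linked to growth arrest, read 11.55, 11.47 and 11.35 log2 with siRELA against 10.74, 10.48 and 9.94 with siCtrl. It rose by 1.07 ± 0.17 with siRELA and was not called with siTNFR1 (0.48 ± 0.17, adjusted p = 0.12) or siIRF1 (-0.24 ± 0.17). MXI1, a MYC antagonist, was detected on 1 siRELA array and on no siCtrl array. With siRELA it was at least 1.30-fold higher (0.42 ± 0.14).

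Adrenomedullin, the secreted vasodilator peptide encoded by ADM, read 12.19, 12.15 and 12.51 log2 with siIRF1 against 10.84, 11.05 and 11.23 with siCtrl. The siIRF1 arrays lay above every siCtrl array (1.24 ± 0.15, adjusted p = 1.6e-06), and ADM differed by -0.06 ± 0.15 with siTNFR1 and 0.07 ± 0.15 with siRELA. EGLN1, the main HIF prolyl hydroxylase, read 7.34, 7.54 and 7.57 log2 with siIRF1 against 6.62, 7.08 and 6.45 with siCtrl. It was called with siIRF1 (0.76 ± 0.18), with 0.08 ± 0.18 for siTNFR1 and 0.11 ± 0.18 for siRELA; the direct difference of siIRF1 from siTNFR1 was 0.69 ± 0.18 and called. INSIG2, which holds the cholesterol-sensing SREBP complex in the endoplasmic reticulum, rose by 0.70 ± 0.20 with siIRF1, and its groups overlapped.

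The members that fell with siIRF1 included the mitophagy receptors BNIP3 and BNIP3L. BNIP3 read 11.75, 11.85 and 11.73 log2 with siIRF1 against 12.32, 12.45 and 12.30 with siCtrl, and BNIP3L read 9.77, 9.84 and 8.76 against 10.12, 10.36 and 10.12. Neither pair of groups overlapped, and the falls were -0.58 ± 0.10 for BNIP3 and -0.74 ± 0.19 for BNIP3L, the second with 1 siIRF1 array well below the others. Without that array, siIRF1 replicate 3, BNIP3L was -0.39 and not called. P4HA2, a subunit of the collagen prolyl 4-hydroxylase, fell with siIRF1 (-0.65 ± 0.12) and with siRELA (-0.35 ± 0.12) and was not called with siTNFR1 (0.25 ± 0.12). VEGFA, the vessel growth factor, differed by 0.27, 0.53 and -0.37 (SE 0.23 each) with siTNFR1, siRELA and siIRF1, and PFKFB4, a kinase that makes the allosteric activator of phosphofructokinase, by 0.62, 0.78 and -0.23 (SE 0.28 each). Neither was called, and the related kinase PFKFB3 stayed between -0.03 and 0.25.

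Among the 16 core enzymes, 0 were called with siTNFR1 and 0 with siRELA by limma, beside 3.33% and 21.1% of all genes, and 2 and 1 had an unadjusted p under 0.05, beside 15.8% and 32.8%. With siIRF1 PGAM1, the phosphoglycerate mutase, and PKM, the pyruvate kinase, were lower (-0.57 and -0.54, SE 0.15 each). Leaving out single arrays ended the calls of MXI1 and P4HA2 with siRELA, and of INSIG2 and PGAM1 with siIRF1. LDHA read 14.13, 14.25 and 13.92 log2 with siTNFR1, 14.03, 14.03 and 13.93 with siRELA and 14.02, 14.18 and 13.96 with siIRF1, against 14.03, 14.05 and 14.06 with siCtrl. The groups overlapped, and the 95% interval of the siTNFR1 difference ran from -0.19 to 0.30. PGK1, the phosphoglycerate kinase, differed by 0.14, -0.03 and 0.03, ENO1, the main enolase, by 0.11, 0.20 and -0.01, and HK2, the inducible hexokinase, by 0.24, 0.23 and 0.17, and none of these was called. The median difference of the enzymes was 0.12, 0.15 and 0.02, against 0.27, 0.39 and -0.06 for the HIF-type targets and -0.01, 0.02 and 0.00 for all genes, each in the order siTNFR1, siRELA and siIRF1.

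Of 14 measured HIF subunits and regulators, 0 were called with siTNFR1 by limma. With siRELA the HIF alpha subunits EPAS1 (0.98 ± 0.16) and HIF1A (0.62 ± 0.20) were higher, and with siIRF1 the HIF inhibitor CITED2 was higher (0.47 ± 0.14) and the beta subunit ARNT2 at least 1.42-fold lower (-0.51 ± 0.18, not detected on any siIRF1 array). Of 23 further genes known as hypoxia or HIF targets, 2 were higher and 0 lower with siTNFR1, 3 higher and 2 lower with siRELA, and 6 higher and 2 lower with siIRF1. Beside both lists, the shares of all genes called were 3.33%, 21.1% and 21.8%, in the order siTNFR1, siRELA and siIRF1. The ubiquitin ligase subunit gene WSB1 was higher with each, by 1.61, 2.18 and 2.23 (SE 0.22 each), and STC1, a secreted glycoprotein, was higher with siRELA (0.56 ± 0.14) and lower with siIRF1 (-1.17 ± 0.14). Of 14 control genes, TBP was higher with siTNFR1 and with siRELA and lower with siIRF1, and PPIA was higher with siRELA and lower with siIRF1. Their part in the members' values was not tested.

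The same siRNAs were then compared in BV6-treated cells, which are separate arrays with their own siCtrl group. Here 5 members were higher and 0 lower with siTNFR1, against 4.98% of all genes called (2.63% higher and 2.35% lower). There were 10 higher and 1 lower with siRELA, against 19.2% (9.79% higher and 9.42% lower), and 4 higher and 5 lower with siIRF1, against 22.2% (9.37% higher and 12.8% lower). SLC2A3 read 10.83, 10.68 and 10.96 log2 with siTNFR1, 11.69, 11.44 and 11.67 with siRELA and 10.71, 10.62 and 10.76 with siIRF1, against 9.88, 9.44 and 9.21 with siCtrl. The siCtrl arrays were again lowest, and the differences were 1.31, 2.09 and 1.19 (SE 0.16 each). KDM3A was not detected on any BV6-treated siCtrl array and was at least 2.35-fold, 2.72-fold and 2.98-fold higher with siTNFR1, siRELA and siIRF1. ANKRD37 was higher with all 3, by 0.63, 0.74 and 0.73 (SE 0.15 each).

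CA12 and ANGPTL4 again had opposite signs in BV6-treated cells: both were higher by 1.19 with siRELA (SE 0.16 and 0.17), and neither was detected on any siIRF1 array, which made CA12 at least 3.11-fold and ANGPTL4 at least 2.75-fold lower there. ADM was higher with siIRF1 (1.43 ± 0.15), and BNIP3 was higher with siRELA (0.39 ± 0.10) and lower with siIRF1 (-0.32 ± 0.10). BNIP3L (0.83 ± 0.19) and INSIG2 (0.69 ± 0.20) rose with siTNFR1. Among the enzymes, the aldolase ALDOC (0.65 ± 0.21) and HK2 (0.41 ± 0.14) rose with siRELA and PKM fell with siIRF1 (-0.48 ± 0.15). HK2 read 9.07, 9.48 and 9.23 log2 with siRELA against 8.99, 8.75 and 8.80 with siCtrl, so its groups were separated by less than 0.1.

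The remaining calls with siRELA in BV6-treated cells were NDRG1 (0.69 ± 0.17), the collagen hydroxylase subunit P4HA1 (0.44 ± 0.15) and P4HA2 (-0.42 ± 0.12), and P4HA2 was lower with siIRF1 as well (-0.42 ± 0.12). LDHA differed by 0.02, 0.01 and 0.12, SLC2A1 by -0.11, -0.04 and -0.23, and PGK1 by 0.22, 0.14 and 0.34 with siTNFR1, siRELA and siIRF1, and none was called. With the replicate number as a block, BHLHE40 (-0.50), INSIG2 (0.45) and PFKFB4 (0.67) were called with siRELA as well, and BHLHE40 (-0.60), INSIG2 (0.49) and P4HA1 (0.37) with siIRF1. Leaving out 1 array changed the siTNFR1 count of 5 to between 2 and 4, with ANKRD37, BNIP3L and INSIG2 the calls lost. Single arrays also ended the calls of ALDOC, HK2, P4HA1 and P4HA2 with siRELA, and of BNIP3, P4HA2 and PKM with siIRF1.

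The siRNAs were also compared with each other in untreated cells, which takes siCtrl out of the difference. SLC2A3 was higher with siRELA than with siTNFR1 (0.77 ± 0.16) and than with siIRF1 (0.67 ± 0.16), and differed by 0.10 ± 0.16 between siIRF1 and siTNFR1. KDM3A was not called in any of these 3 comparisons (0.49, 0.18 and 0.31, SE 0.17 each, for siRELA minus siTNFR1, siIRF1 minus siTNFR1 and siRELA minus siIRF1). Between siRELA and siTNFR1 4 members were called, 3 higher and 1 lower, against 14.8% of all genes (7.39% higher and 7.44% lower). Between siIRF1 and siTNFR1 13 were called, 3 higher and 10 lower (18.6% of all genes, 7.33% higher and 11.3% lower), and between siRELA and siIRF1 17 were called, 14 higher and 3 lower (33.9% of all genes, 18.7% higher and 15.2% lower).

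CA12 was higher with siRELA than with siIRF1 by 2.74, and ANGPTL4 was at least 4.56-fold higher. NDRG1 (1.31), BNIP3L (1.13), PFKFB4 (1.01), VEGFA (0.89), PKM (0.75) and BNIP3 (0.71) were also higher with siRELA than with siIRF1, and ADM (-1.17), EGLN1 (-0.66) and the neuronal enolase ENO2 (-0.35) were lower. The housekeeping enzyme GAPDH was lower with siIRF1 than with siTNFR1 (-0.31). Within a single slide 0 members were called between siRELA and siTNFR1 on either slide, with 1 or 2 arrays per group. Leaving out single arrays ended 2 of the 4 calls between siRELA and siTNFR1 (CA12 and NDRG1), 4 of 13 between siIRF1 and siTNFR1 (ANKRD37, EGLN1, GAPDH and PFKFB4) and 6 of 17 between siRELA and siIRF1 (ALDOA, ENO2, HK1, MXI1, P4HA2 and PFKFB4).

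Untransfected cells served as a second baseline for the same question: whether SLC2A3 and KDM3A are high with the targeting siRNAs or low with siCtrl. Transfected and untransfected cells lie on different slides and in different experiments, so slide, experiment and transfection cannot be told apart. On the joint scale SLC2A3 averaged 10.78 log2 with siTNFR1, 11.56 with siRELA, 10.88 with siIRF1 and 9.37 with siCtrl, against 10.04 in untransfected untreated cells. It was higher with the 3 targeting siRNAs (0.74, 1.52 and 0.84) and lower with siCtrl (-0.67) than in untransfected cells, with SE 0.14 each. KDM3A was higher by 0.49, 0.99 and 0.67 with the targeting siRNAs and was not called with siCtrl (-0.37), with SE 0.16 each. The siTNFR1 call of KDM3A was kept in 11 of 18 alternatives, and was lost against the 9 h arrays alone, with only the groups compared, and without siTNFR1 replicate 1 or 2 or any of 3 untransfected arrays (lowest 0.34). The 6 untransfected arrays of SLC2A3 ran from 9.78 to 10.46, below every array of the targeting siRNAs and above every siCtrl array.

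Counts of members called against untransfected cells were 14 with siTNFR1, 13 with siRELA, 16 with siIRF1 and 13 with siCtrl, beside 21.6%, 31.4%, 31.6% and 22.3% of all genes called. Several members differed from untransfected cells in the same way with all 4 siRNAs, which share the untransfected arrays. ALDOC was higher by 1.21, 1.41, 1.14 and 0.89, the muscle phosphofructokinase PFKM was lower (-0.58, -0.52, -0.54 and -0.71), and so was ENO2 (-0.75, -0.82, -0.47 and -0.73), each in the order siTNFR1, siRELA, siIRF1 and siCtrl. ANKRD37, which was higher with siRELA and siIRF1 than with siCtrl, was lower than in untransfected cells with all 4 (-0.95, -0.54, -0.51 and -1.21). Its untransfected arrays spread from 7.04 to 8.50 log2, with the 9 h pair lowest, and against that 9 h pair alone it was not called with any siRNA (-0.43, -0.02, 0.0087 and -0.69).

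Against untransfected cells, ANGPTL4 was at least 5.00-fold lower with siIRF1, and CA12 (-1.96), VEGFA (-1.26), BNIP3 (-0.86), PFKFB4 (-0.82), NDRG1 (-0.75), BNIP3L (-0.62) and PKM (-0.34) were lower. ADM (0.96) and EGLN1 (0.47) were higher with siIRF1 here too. BNIP3L with siIRF1 was -0.27 and not called without siIRF1 replicate 3, and -0.02 from the mean of its detected probes. PFKFB4 and NDRG1 with siIRF1 were -0.33 and -0.26 against the 9 h arrays alone, and not called. With siRELA CA12 (0.77), ALDOA (0.59), NDRG1 (0.57), BNIP3L (0.53), and PKM (0.42) were higher, and INSIG2 (-0.52) was lower. MXI1 was called higher with siRELA too, though it was mostly undetected. NDRG1 with siCtrl was -0.51 against the mean of the 3 untreated times and -0.02 against the 9 h arrays alone. VEGFA was lower with siTNFR1 (-0.62) and siCtrl (-0.89), and HK2 was lower with siCtrl (-0.39 ± 0.13), against -0.15, -0.17 and -0.22 for siTNFR1, siRELA and siIRF1, which were not called. From the mean of its detected probes HK2 with siCtrl was -0.01.

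The remaining siTNFR1 calls against untransfected cells were P4HA2 (0.73), BNIP3L (0.61), PKM (0.52), PGAM1 (0.40) and PGK1 (0.37), higher, and ANGPTL4 (-0.46) and BNIP3 (-0.27), lower. With siCtrl P4HA2 (0.48) and ALDOA (0.42) were higher and INSIG2 (-0.89), ANGPTL4 (-0.87) and BNIP3 (-0.29) lower. LDHA lay between -0.14 and -0.03 (SE 0.10), SLC2A1 between -0.24 and -0.06 (SE 0.12) and ENO1 between -0.16 and 0.06 (SE 0.08) with the 4 siRNAs. With the replicate number as a block, BHLHE40 (0.47), INSIG2 (-0.41) and P4HA1 (0.35) were also called with siTNFR1, and BHLHE40 (0.42) and PFKFB4 (-0.60) with siCtrl. That block pairs arrays within each experiment only, and no transfected array with an untransfected one. Leaving out single arrays ended 7 of the 14 siTNFR1 calls, 6 of 13 with siRELA, 5 of 16 with siIRF1 and 4 of 13 with siCtrl. Values that moved by over 1.5 times were those of BNIP3L with siIRF1, given above, INSIG2 with siRELA, which was -0.32 without siRELA replicate 3, and NDRG1 with siCtrl, which was -0.28 without siCtrl replicate 3.

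BV6 was the treatment under study, and at 9 h it moved none of these genes past the threshold in transfected MDA-MB-231 cells. By limma 0 of 35 members were called with siCtrl, siTNFR1, siRELA or siIRF1, against 2.54%, 1.33%, 0.303% and 0.847% of all genes, and 1, 5, 0 and 4 members had an unadjusted p under 0.05, beside 14.6%, 11.5%, 5.89% and 8.69% of all genes. With siCtrl the HIF-type targets ranged from -0.34 to 0.43 with a median of -0.13, and the enzymes from -0.15 to 0.19 with a median of -0.05, against -0.02 for all genes. The largest negative value among the members was that of PFKFB4 with siTNFR1 (-0.64 ± 0.28). SLC2A3 differed by 0.03, -0.05, -0.05 and -0.28 (SE 0.16) and LDHA by -0.06, -0.10, 0.00 and 0.05 (SE 0.11) with siCtrl, siTNFR1, siRELA and siIRF1.

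Of the other members followed throughout, KDM3A (-0.34 ± 0.17), PFKFB3 (0.34 ± 0.18), BNIP3 (-0.23 ± 0.10), SLC2A1 (-0.19 ± 0.15), ENO1 (0.19 ± 0.10), NDRG1 (0.18 ± 0.17), EGLN1 (0.18 ± 0.18), PFKFB4 (-0.16 ± 0.28), ADM (0.13 ± 0.15), HK2 (-0.13 ± 0.14), PGK1 (-0.12 ± 0.15) and VEGFA (0.06 ± 0.23) were not called with BV6 in siCtrl cells. The BV6 response with siTNFR1, siRELA or siIRF1 did not differ from that with siCtrl past the threshold for any member (limma, 0 called; 1, 1 and 1 with an unadjusted p under 0.05), beside 0.0105%, 0.0418% and 0.178% of all genes called and 6.34%, 5.25% and 4.54% with such an unadjusted p. Standard errors of these BV6 differences ran from 0.10 to 0.29 over the members, so a change of that size was not detectable with 3 arrays per group. Larger changes could be missed too. In simulated data of this experiment, 13 of 67 changes of 0.5 log2 between siTNFR1 and siCtrl were called.

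The time course followed BV6 in untransfected MDA-MB-231 cells, and each time was set against all 6 untreated arrays, so the 5 comparisons share their baseline. PFKFB4 was lower from 3 to 12 h and NDRG1 at 9 and 12 h, and ADM and BHLHE40 were higher at 12 and 15 h. At 3, 6, 9, 12 and 15 h, 1, 1, 2, 5 and 3 of 34 members were called, against 0.419%, 0.606%, 1.35%, 4.42% and 7.43% of all genes. No enzyme was called at any time by limma, with 0, 0, 1, 1 and 1 enzymes at an unadjusted p under 0.05, beside 11.4%, 7.84%, 11.5%, 19.6% and 23.6% of all genes.

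**Figure D3:**
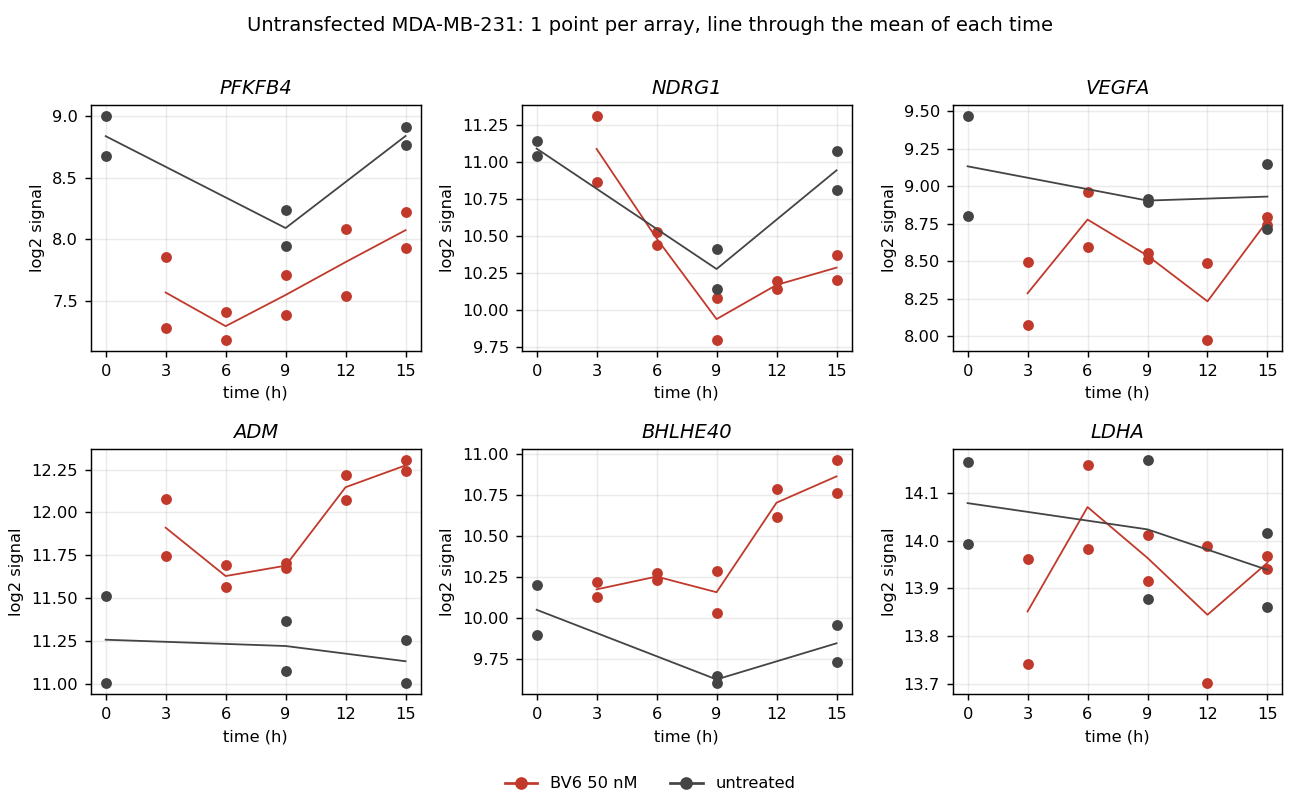
Log2 signal (y axis) of 6 members against time in hours (x axis) in untransfected MDA-MB-231 cells given 50 nM BV6 (red) or left untreated (black), 1 point per array and a line through the mean of each time (n = 2). ADM and BHLHE40 climb with BV6 at 12 and 15 h, and PFKFB4 lies below all untreated arrays from 3 to 9 h. The untreated 9 h arrays of NDRG1 and PFKFB4 dip below those of 0 and 15 h.

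PFKFB4 read 7.86 and 7.28 log2 at 3 h of BV6, 7.41 and 7.19 at 6 h, 7.39 and 7.71 at 9 h, 7.54 and 8.09 at 12 h, and 8.22 and 7.93 at 15 h, while the untreated arrays read 8.67 and 8.99 at 0 h, 7.95 and 8.23 at 9 h, and 8.77 and 8.91 at 15 h. The BV6 arrays at 3, 6 and 9 h lay below all 6 untreated arrays, and those at 12 and 15 h overlapped the untreated 9 h pair. The differences were -1.02, -1.29, -1.04, -0.77 and -0.51 (SE 0.19 each), the last not called (adjusted p = 0.12). The untreated level itself was lower at 9 h, and against that time alone the 9 h difference was -0.54 (limma, adjusted p = 0.66).

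NDRG1 read 11.31 and 10.87 log2 at 3 h of BV6, 10.44 and 10.53 at 6 h, 9.80 and 10.08 at 9 h, 10.19 and 10.14 at 12 h, and 10.37 and 10.20 at 15 h, while untreated arrays read 11.04 and 11.14 at 0 h, 10.41 and 10.14 at 9 h, and 11.07 and 10.81 at 15 h. The 9 h BV6 arrays lay below all untreated arrays, but the untreated 9 h pair lay close above them. The fall was -0.83 ± 0.16 at 9 h and -0.60 ± 0.16 at 12 h, with 0.32, -0.29 and -0.48 at 3, 6 and 15 h not called, and against the untreated 9 h arrays alone the 9 h value was -0.34 (adjusted p = 0.82). ANKRD37 and CA12 had the same dip in untreated cells, with 7.67 and 7.01 log2 at 9 h for ANKRD37 and 7.63 and 6.79 for CA12, both below their 0 and 15 h arrays of the same replicate number.

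ADM read 12.08 and 11.75 log2 at 3 h of BV6, 11.57 and 11.69 at 6 h, 11.68 and 11.70 at 9 h, 12.22 and 12.07 at 12 h, and 12.31 and 12.24 at 15 h, while untreated arrays ran from 11.00 to 11.51. Every BV6 array lay above every untreated array. Its differences were 0.71, 0.43, 0.49, 0.94 and 1.07 (SE 0.16 each), of which the last pair were called (adjusted p = 0.0024 for 12 h and 0.00053 for 15 h). BHLHE40 read 10.22 and 10.13 log2 at 3 h, 10.27 and 10.23 at 6 h, 10.29 and 10.03 at 9 h, 10.79 and 10.62 at 12 h, and 10.96 and 10.76 at 15 h with BV6, while untreated arrays ran from 9.60 to 10.20. Its BV6 arrays lay above every untreated array at 6, 12 and 15 h. The differences at 12 and 15 h were 0.86 ± 0.14 and 1.02 ± 0.14.

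VEGFA was called lower at 12 h (-0.76 ± 0.20), with 7.98 and 8.49 log2 against 8.71 to 9.46 in untreated arrays, and its values at the other times were -0.70, -0.21, -0.45 and -0.22 at 3, 6, 9 and 15 h. BNIP3L was lower at 15 h (-0.67 ± 0.18), with 9.35 and 9.18 log2 against 9.68 to 10.37 untreated, a call that ended without either BV6 array. SLC2A3 read 9.08 and 9.44 at 3 h and 10.60 and 10.30 at 15 h with BV6, with differences of -0.75 and 0.44 (SE 0.17) that were not called. LDHA stayed between -0.17 and 0.06 (SE 0.14), SLC2A1 between -0.32 and -0.04 (SE 0.14), and HK2 between -0.51 and -0.02 (SE 0.16). The median of the HIF-type targets was -0.16, -0.21, -0.27, -0.24 and -0.11 and that of the enzymes -0.11, 0.02, -0.08, -0.22 and -0.08, beside -0.03, -0.02, -0.03, -0.05 and -0.05 for all genes.

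KDM3A ranged from -0.35 to 0.27 (SE 0.20), PFKFB3 from -0.32 to 0.16 (SE 0.17), PGK1 from -0.23 to 0.08 (SE 0.15), ENO1 from 0.00 to 0.09 (SE 0.13), EGLN1 from -0.18 to 0.04 (SE 0.15) and BNIP3 from -0.60 to -0.06 (SE 0.17) over the 5 times. With the replicate number as a block, ANKRD37 was also called at 6 h (-1.01), BNIP3 (-0.60) and CA12 (-1.48) at 12 h, and BNIP3 (-0.47), CA12 (-1.26) and NDRG1 (-0.48) at 15 h. The count was 0 at 3 h without the second BV6 array or the second untreated 9 h array, at 6 h without either BV6 array, and at 9 and 12 h without the first BV6 array of that time. All untreated arrays and both 3 h arrays lay on 1 slide, where 0, 0, 0, 1 and 2 members were called at the 5 times.

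Between untreated arrays at 15 h and 0 h, limma called 0 members and 0 of all genes (0%), with 3 members and 261 genes at an unadjusted p under 0.05. The BV6 response of siCtrl cells differed from that of untransfected cells at 9 h for 0 members by limma (1 with an unadjusted p under 0.05), beside 0.00892% of all genes called and 3.04% with such an unadjusted p.

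In EVSA-T cells with siCtrl, 5 nM BV6 raised BHLHE40 to a clearly detected level. BHLHE40, which encodes a basic helix-loop-helix repressor induced by HIF and by cytokines, read 8.79 and 8.86 log2 with BV6 against 5.88 and 5.96 without. Neither untreated array detected it, and with BV6 it was at least 7.51-fold higher (2.91 ± 0.20, limma, adjusted p = 5.9e-06). With siTNFR1 it read 5.99 and 5.94 log2 with BV6 against 6.03 and 5.49 without, so those groups overlapped. The BV6 response was lower with siTNFR1 than with siCtrl (-2.71 ± 0.29, limma, adjusted p = 0.00087), the 1 interaction called among 30 members, beside 3.62% of all genes.

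**Figure D4:**
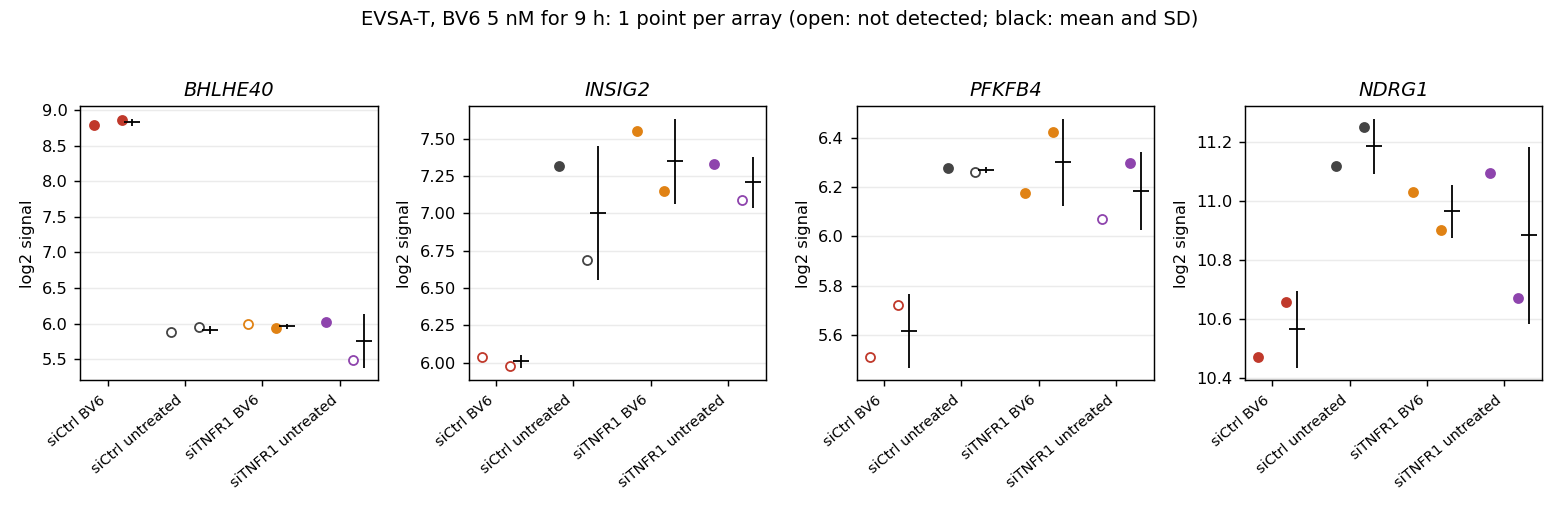
Log2 signal (y axis) of 4 members on each EVSA-T array (x axis: siRNA and treatment; 5 nM BV6 for 9 h), with open points where the probe was not detected and black marks for the mean and SD (n = 2). BHLHE40 is high on the 2 siCtrl BV6 arrays and near 6 or below on the other 6, and INSIG2 and PFKFB4 are lowest on the siCtrl BV6 arrays.

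In all, 3 of 30 members were called with BV6 in siCtrl EVSA-T cells, against 11.6% of all genes. INSIG2 read 6.04 and 5.98 log2 with BV6 against 7.32 and 6.68 without, and was at least 1.99-fold lower (-0.99 ± 0.24). PFKFB4 read 5.51 and 5.72 log2 with BV6 against 6.28 and 6.26 without, and was at least 1.57-fold lower (-0.65 ± 0.19, adjusted p = 0.044). Both are dim, since each was detected on 0 BV6 arrays and on 1 of the 2 untreated arrays. Both folds come from the measured means and leave out the spread between arrays. The enzymes had a median of -0.01 and the HIF-type targets -0.14, beside -0.10 for all genes.

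With siTNFR1, BV6 changed 0 of 30 members by limma (1 with an unadjusted p under 0.05), beside 0.0919% of all genes called and 3.32% with such an unadjusted p. In untreated EVSA-T cells siTNFR1 against siCtrl likewise gave 0 members called (2 with an unadjusted p under 0.05), beside 0.0394% and 7.46% of all genes. In BV6-treated EVSA-T cells 4 members differed between siTNFR1 and siCtrl, against 11.4% of all genes: INSIG2 was at least 2.53-fold higher (1.34 ± 0.24), ANKRD37 higher by 0.88 ± 0.24, PFKFB4 at least 1.61-fold higher (0.68 ± 0.19) and BHLHE40 lower (-2.86 ± 0.20). ANKRD37 read 7.20 and 7.24 log2 with siTNFR1 and BV6 against 6.63 and 6.04 with siCtrl and BV6. The ANKRD37 and PFKFB4 calls ended when single arrays were left out.

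Other members followed in EVSA-T were NDRG1 (-0.62 ± 0.20), EGLN1 (-0.46 ± 0.21), PGK1 (-0.38 ± 0.18), KDM3A (0.36 ± 0.20), VEGFA (0.23 ± 0.26), ENO1 (-0.17 ± 0.17), PFKFB3 (-0.17 ± 0.20), SLC2A1 (-0.14 ± 0.20), BNIP3 (-0.07 ± 0.17), LDHA (0.02 ± 0.18) and HK2 (-0.01 ± 0.23) with BV6 in siCtrl cells, none called. SLC2A3, ADM, MXI1, ANGPTL4 and ENO2 were detected on fewer than 3 EVSA-T arrays and were not tested within that experiment. Of the HIF regulators, the prolyl hydroxylase EGLN2 (0.90 ± 0.17) and VHL (0.94 ± 0.20), which targets HIF for degradation, were higher with BV6. Without either siCtrl BV6 array, or without the first untreated siCtrl array, BHLHE40 was the 1 member still called. With the replicate number as a block INSIG2 (1.13) joined BHLHE40 in the interaction.

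The last comparison set the lines against each other in untreated siCtrl cells, where slide, experiment and line cannot be told apart. EVSA-T had 5 members higher and 16 lower than MDA-MB-231, against 60.6% of all genes called (31.9% higher and 28.8% lower). SLC2A3, ADM, ANGPTL4 and ENO2 were detected on fewer than 3 EVSA-T arrays and entered through MDA-MB-231, where they are high, so they could only come out lower. Of the 30 members that passed the detection filter in each line's own siRNA experiment, 5 were higher and 12 lower, beside 39.9% higher and 25.9% lower among 7090 genes that passed both. These were 2 higher and 9 lower of 15 HIF-type targets, and 3 higher and 3 lower of 15 enzymes.

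**Figure D5:**
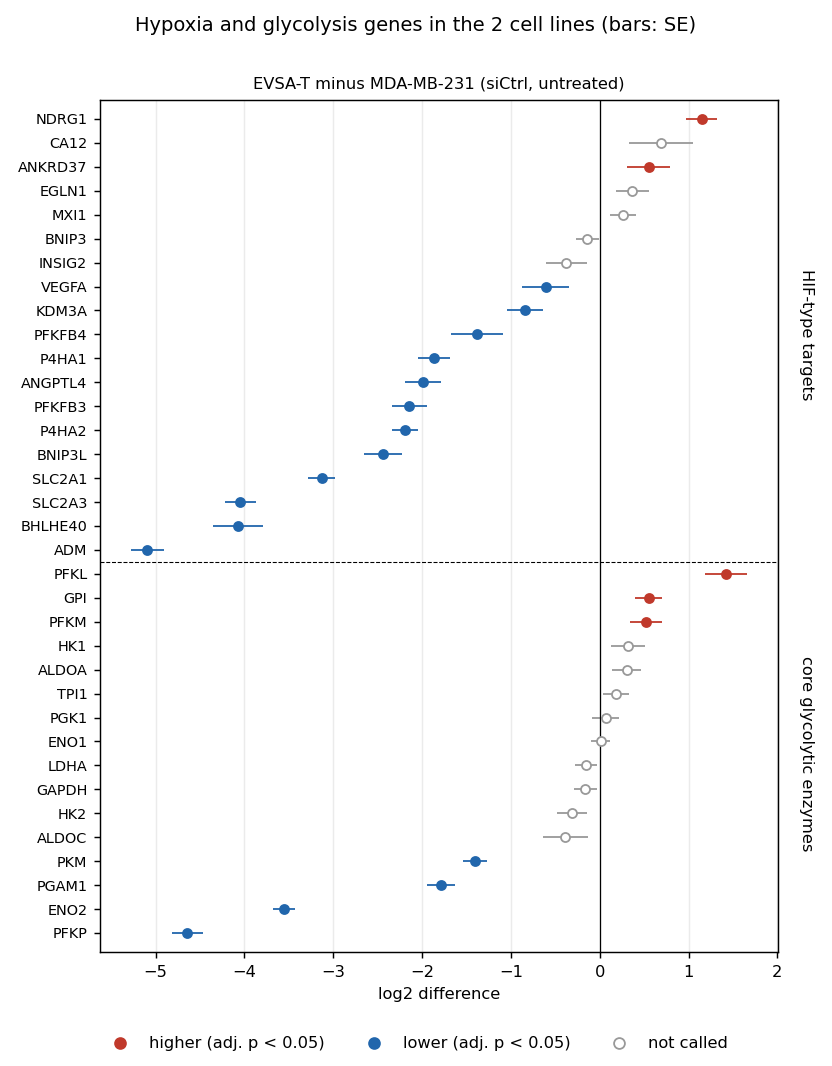
Log2 difference (x axis) of the 35 members (y axis) between untreated siCtrl EVSA-T (2 arrays) and MDA-MB-231 (3 arrays), with bars for the standard error. ADM, PFKP, BHLHE40 and SLC2A3 lie furthest left, PFKL and NDRG1 furthest right, and LDHA, PGK1 and ENO1 lie near 0.

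ADM read 5.71 and 6.00 log2 in EVSA-T against 10.74, 10.96 and 11.14 in MDA-MB-231 (-5.09 ± 0.18). SLC2A3 was not detected in EVSA-T (5.28 and 5.36 log2, against 9.72, 9.36 and 9.02) and was at least 16.1-fold lower, and SLC2A1 was lower too (-3.13 ± 0.15). The SLC2A1 probe was detected on all 48 arrays, while SLC2A3, like ADM, entered through MDA-MB-231 and could only come out lower. The phosphofructokinase subunits differed in opposite directions: PFKP, the platelet type, read 6.57 and 7.37 log2 in EVSA-T against 11.70, 11.65 and 11.49 in MDA-MB-231, and PFKL, the liver type, read 9.50 and 8.97 against 7.57, 8.06 and 7.79. The difference was -4.64 ± 0.17 for PFKP, 1.42 ± 0.24 for PFKL and 0.52 for the muscle type PFKM, all called.

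BHLHE40 was at least 16.8-fold lower in EVSA-T, ENO2 at least 10.9-fold, ANGPTL4 at least 3.72-fold and KDM3A at least 1.79-fold lower. BNIP3L (-2.44), P4HA2 (-2.19), PFKFB3 (-2.14), P4HA1 (-1.87), PGAM1 (-1.78), PKM (-1.41), PFKFB4 (-1.38) and VEGFA (-0.61) were also lower, and NDRG1 (1.15) and GPI (0.55), the glucose-phosphate isomerase, were higher. ANKRD37 was counted as higher but was not detected on either untreated EVSA-T array, so its difference is not a measured level. Leaving out single arrays ended the calls of ANKRD37, GPI, PFKM and VEGFA. LDHA (-0.15 ± 0.12), PGK1 (0.07 ± 0.15), ENO1 (0.01 ± 0.10), HK2 (-0.31 ± 0.17), BNIP3 (-0.14 ± 0.13) and EGLN1 (0.37 ± 0.19) were not called. Of the HIF alpha subunits, HIF1A was lower in EVSA-T (-1.47 ± 0.27), and EPAS1, not detected there, was at least 7.60-fold lower (-2.93 ± 0.19).

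The BV6 response in siCtrl cells differed between the lines for 3 of 35 members, against 5.82% of all genes, with BV6 at 5 nM in EVSA-T and 50 nM in MDA-MB-231. BHLHE40 responded more in EVSA-T by 2.49 ± 0.40 on the log2 scale, and ADM by 1.72 ± 0.26 more. As no untreated EVSA-T array detected BHLHE40, its baseline there is not a measured level. Without background correction the BHLHE40 value was 1.57 and still called. ADM read 7.38 and 8.03 log2 with BV6 against 5.71 and 6.00 without in EVSA-T, and 11.00, 10.95 and 11.29 with BV6 against 10.74, 10.96 and 11.14 without in MDA-MB-231. ADM was detected on only 1 of these 2 EVSA-T arrays of each treatment. It entered the test through MDA-MB-231 and was not tested within EVSA-T. The NDRG1 responses had opposite signs, -0.62 in EVSA-T and 0.18 in MDA-MB-231 within each experiment, and the difference on the joint scale was -0.80 ± 0.25 (limma, adjusted p = 0.049). Its EVSA-T arrays read 10.73 and 10.91 log2 with BV6 against 11.37 and 11.50 without. The NDRG1 call ended when single arrays were left out. With the replicate number as a block, which pairs samples only within each line, INSIG2 (-0.85) and P4HA1 (0.57) were called as well. As doses differ between the lines, dose and line cannot be told apart.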

How the data were processed

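The members and gene lists were chosen with earlier results of these data known. Per the file headers, the deposited table pairs a signal with a detection p-value for each probe on each array. The signals, named non-normalized, run from 5.47 to 14.9, so the deposited values were read as log2 and raised to the power of 2. A series matrix deposited by the authors, also in log2 units, was an alternative. How the detection p-value was made is not stated here by a source, and its Spearman correlation with the signal was -0.88 to -0.859 per array. In R 4.3.3 with limma 3.58.1, neqc corrected the background with negative-control moments taken from the detection p-values, and its offset was 16; quantile normalization was run on each experiment, and all 48 arrays together for the comparisons across experiments. Of 48107 probes, 3 with a missing value were dropped and 30112 had 1 symbol. Genes were tested where their probe was detected on 3 or more arrays of a fit: 9561 in the siRNA experiment, 9070 in the time course, 7617 in EVSA-T and 11212 jointly, with 16, 8, 4 and 28 residual degrees of freedom. lmFit and eBayes tests were two-sided with Benjamini-Hochberg adjustment, and were tested on simulated data, with 1 comparison per experiment. There, 13 of 67 changes of 0.5 log2 were called in the siRNA experiment, 6 of 67 in the time course and 1 of 67 in EVSA-T. Of 67 changes of 1 log2, 62, 56 and 32 were called, so an absent call does not exclude changes of these sizes. Precision depends on how many arrays there are and on how far signals stand over background: the median linear signal of undetected probes was 81.6 to 103, so changes of dim genes are compressed. Full values are given for called members, at most 10 per comparison by size, for 16 members fixed by name, and for up to 4 called genes of each other list. Residuals of arrays with the same replicate number were correlated, and the numbers were taken to pair samples where each of 3 or more pairs correlated at r above 0.1. Pairing thus applied to BV6 in siCtrl and siIRF1 cells and to siRELA and siIRF1 against siCtrl in BV6-treated cells. It also applied to 6 to 15 h of the time course and the EVSA-T interaction. Only arrays of the same experiment were correlated. Untreated siRNA groups against untransfected cells met the rule through pairs of untransfected arrays alone, and BV6 responses across experiments through pairs within each. No transfected array was paired with an untransfected one. In groups of 2 arrays both replicate numbers give the same correlation, so not all pairs are independent. Of the deposited value columns, 1 matched no sample and was not used here.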

Additional observations from a re-analysis of the deposited data

Results flagged for a closer look

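Differences between responses that passed their own test concern 3 members. In EVSA-T the BV6 response of BHLHE40 was lower with siTNFR1 than with siCtrl by a log2 difference of -2.71 ± 0.29 (limma, adjusted p = 0.00087), with siTNFR1 arrays at 5.99 and 5.94 log2 with BV6 against 6.03 and 5.49 without. Between the lines, in siCtrl cells, the response in EVSA-T minus that in MDA-MB-231 was 2.49 for BHLHE40, which no untreated EVSA-T array detected, 1.72 for ADM and -0.80 for NDRG1. ADM entered this test through MDA-MB-231, where it is high. It was detected on 2 of 8 EVSA-T arrays, and its response was not tested within EVSA-T. These line differences rest on 2 EVSA-T arrays per group, on a 5 nM dose in EVSA-T and a 50 nM dose in MDA-MB-231, and on separate slides, and the part of each was not tested.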

How the results depend on the processing

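For single genes, 2535 of 2941 alternative values stayed on the same side of the threshold with the same sign, 405 lost the call, and 1 turned: ANKRD37 with siIRF1, -0.51 against all untransfected arrays, was 0.0087 against the 9 h arrays alone. The cause was not tested. Of 182 called member differences, 46 moved in size by over 1.5 times without background correction, 45 with the authors' series matrix and 25 with the mean of all detected probes. The median of all genes moved by at most 0.02 under the scaling alternatives. The counts of members called that moved by over 1.5 times were these. With background taken from undetected probes, a setting chosen after seeing the data, BV6 in siIRF1 cells had 1. With the replicate block, siTNFR1 minus siCtrl in untreated cells had 5, BV6 at 3 h 3, at 6 h 2 and at 15 h 6, BV6 in siCtrl EVSA-T 5, the EVSA-T interaction 2 and the line difference of BV6 responses 5. In all, the block gained 20 member calls where the numbers were taken to pair samples and 19 where they were not, and lost 0. It gained 1 more, CA12 higher in untreated EVSA-T than in MDA-MB-231 (0.69), where no groups share an experiment and pairing could not be checked. With the slide as a block, siTNFR1 minus siCtrl had 7 untreated and 8 with BV6. On slide 1 alone, untreated siTNFR1 had 1 and siIRF1 4, in BV6-treated cells siTNFR1 had 1, siRELA 7 and siIRF1 5, and siRELA minus siTNFR1 had 0, siIRF1 minus siTNFR1 5 and siRELA minus siIRF1 9. On slide 2 alone the same comparisons had 1 and 8, then 1, 4 and 5, then 0, 8 and 6, and untreated siRELA 4; these settings hold fewer samples. On slide 3 alone BV6 had 0 at 3, 6 and 9 h and 1 at 12 h. With the authors' series matrix 3 h had 3, 15 h 5 and BV6 in siCtrl EVSA-T 5, and without background correction 3 h had 3 and 15 h 5. Without the detection filter 3 h had 0 and 12 h 3. Against untreated cells of the same time 9 h had 0, and against untransfected 9 h arrays alone siTNFR1 had 9. Leaving out 1 array gave 2 to 4 for siTNFR1 and 7 to 11 for siRELA in BV6-treated cells, 0 to 2 at 3 h, 0 to 1 at 6 h, 0 to 2 at 9 h and 0 to 4 at 12 h, 1 to 2 for BV6 in siCtrl EVSA-T, 2 to 3 for siTNFR1 minus siCtrl in BV6-treated EVSA-T, and 8 to 14 for siTNFR1 minus untransfected cells. With 2 or 3 arrays per group, changes of dim members are limited by signal over background.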

Other observations

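Of 32 genes of neighbouring sugar metabolism, outside the 35 members, measured in untreated MDA-MB-231 cells, 1 was higher and 2 lower with siTNFR1, 4 higher and 7 lower with siRELA, and 1 higher and 5 lower with siIRF1, all against the shared siCtrl arrays and beside 3.33%, 21.1% and 21.8% of all genes called. PGM1, a phosphoglucomutase that links glycogen and glycolysis, was higher with siTNFR1, siRELA and siIRF1 by 0.60, 0.48 and 0.51 (SE 0.12 each). Its relative PGM2 was lower with siTNFR1 (-1.92 ± 0.15) and siRELA (-0.97 ± 0.15). TIGAR, which lowers the activator of phosphofructokinase, was not detected on any untreated siRELA array and was at least 3.06-fold lower there (-1.61 ± 0.15). MPC1, a subunit of the mitochondrial pyruvate carrier, was lower with siRELA (-0.49 ± 0.13) and siIRF1 (-0.78 ± 0.13).

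In EVSA-T the glucose transporter gene SLC2A6 was at least 28.2-fold higher with BV6 in siCtrl cells (4.85 ± 0.19 on the log2 scale, limma, adjusted p = 9.6e-08), detected on both BV6 arrays and on neither untreated array. Of 29 genes of this list measured there, 2 were higher and 4 lower, beside 11.6% of all genes called. With siTNFR1 in BV6-treated EVSA-T cells SLC2A6 was lower than with siCtrl (-4.27 ± 0.19). In untreated MDA-MB-231 cells SLC2A6 was lower with siRELA (-0.50 ± 0.15) and siIRF1 (-0.48 ± 0.15). In the time course, the gluconeogenic enzyme FBP1 was lower at 12 h (-0.78 ± 0.16) and 15 h (-0.88 ± 0.16), and pyruvate carboxylase, PC, at both times (-0.61 and -0.77, SE 0.16 each).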
